A study of Homo sapiens with 8 samples.

Results

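Notch signalling was followed through the H3K27 acetylation around 10 genes, namely the receptor genes NOTCH1, NOTCH2 and NOTCH3, the ligand genes JAG1, JAG2 and DLL1, the target genes HES1, HEY1 and HEY2, and RBPJ, which encodes the DNA-binding protein of the pathway. All peaks of the 6 H3K27ac peak lists that overlapped the body of one of these genes (GENCODE release 44, hg38) or the 50 kb on either side of it were taken. Overlapping or touching peaks of different libraries were joined, which gave 184 intervals of the 143733 in the whole data set. The genes were chosen for their function, although earlier results of these data were known at the time.

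Notch receptors are single-pass membrane proteins that bind Delta and Jagged ligands on a neighbouring cell. Cleavage by ADAM proteases and then by gamma-secretase frees the intracellular part of the receptor, which enters the nucleus, joins RBPJ and Mastermind proteins on DNA and recruits the acetyltransferases p300 and CBP. HES and HEY genes, which encode repressors, are its classical targets, and in the intestine the pathway keeps progenitors dividing and holds back secretory cell fates.

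Between wild-type cells and cells without CREBBP, H3K27ac ranked higher in the knockout at the NOTCH2 promoter (fold 13.0 ± 0.652 against 23.9 ± 0.738, SD, n = 3), in an intron of JAG1 (3.09 ± 0.269 against 5.91 ± 0.693) and just downstream of HES1. It ranked lower downstream of NOTCH3 and at 2 sites upstream of HEY1. Other calls lay at an internal start of RBPJ and in SLX4IP near JAG1, both higher, and upstream of NOTCH2 and RBPJ, both lower. Each of these other calls was lost in some alternative fits. The NOTCH2 promoter has near-identical copies on chromosome 1, and reads could be placed at the wrong copy. The JAG1 intron, the SLX4IP site, the NOTCH3 site and the weaker HEY1 site met the height threshold of the test only in the genotype where they are high. The stronger HEY1 site had overlapping folds, and some alternative fits given below lost its call. Of the 47 tested intervals around these genes 21.3% were called different, against 37.3% of all tested intervals. No peak stood at the start of JAG2 or HEY2 in either genotype, and the starts of NOTCH1, JAG1, HES1 and RBPJ were acetylated in every library with no called difference at the main start.

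ChIP-seq for H3K27ac, a histone mark of active promoters and enhancers, had been made from HCEC-1CT cells, a human colonic epithelial line immortalized with telomerase and CDK4. The WT group held 3 libraries of unedited cells, and the CREBBP-KO group held 3 libraries of the same line in which CREBBP, the gene for the acetyltransferase CBP, had been knocked out by CRISPR. Each library came from its own growing population, as the series' design text states, and the labels name no treatment for either group. The study describes the knockout cells of this experiment as monoclonal and elsewhere describes pools of clones, so a trait of a clone and the loss of CREBBP cannot be told apart.

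The WT lists held 86163 to 93567 peaks and the CREBBP-KO lists 99008 to 111697, and the read depth behind them is unknown. Promoter acetylation did not show a typical epithelial pattern. Of 5 epithelial marker genes, CDH1 and KRT19 had no promoter peak in any library. EPCAM and KRT8 had one in all 6, of moderate or low rank, with percentiles of 5.27 ± 4.44 and 48.0 ± 13.2 (SD, n = 3) in WT and higher without overlap in CREBBP-KO, at 33.8 ± 13.3 and 67.9 ± 7.36. In WT the highest KRT8 peak was one that KRT18 shares, and in CREBBP-KO it was another, so the KRT8 values compare different peaks. KRT18 had a promoter peak in 3 WT libraries (folds of 4.56, 4.97 and 3.60) and in 2 CREBBP-KO libraries (4.27 and 3.37). Of 7 markers of differentiated colon epithelium 5 had no promoter peak. The promoters of 7 of 7 fibroblast markers, COL1A1, COL1A2 and COL3A1 among them, had a peak in all 6 libraries. Their summed fold was 107 to 116.4 in the WT libraries and 137.5 to 165.8 in the CREBBP-KO libraries, against 6.32 to 7.56 and 10.3 to 12.8 for the epithelial list, where a peak that KRT8 and KRT18 share counted once. Of the 7, 2 (COL1A1 and COL1A2) ranked higher in CREBBP-KO by the test explained below, where 25.9% of all tested intervals at protein-coding starts did. So did MUC2, the goblet cell mucin and the one differentiated colon marker that could be tested, whereas LGALS4, another of that list, had a peak in all 3 WT libraries (folds of 4.47, 4.19 and 4.14) and in 0 of 3 CREBBP-KO libraries. Endothelial and leukocyte markers each lacked a promoter peak for 4 of 5 genes. The endothelial PECAM1 had a weak peak in all 3 CREBBP-KO libraries (folds of 2.80, 3.60 and 2.80) and in no WT library. The leukocyte gene CD14 had one in all 6, with percentiles of 32.6 ± 21.1 in WT and 55.9 ± 9.44 in CREBBP-KO, without overlap. Neither could be tested. The cells are therefore called by the name of the line below, and the part of these marker differences in the results was not tested. An H3K27ac peak at CREBBP says nothing about the edit, and the knockout was not checked here.

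The 4 sequences below belong to called intervals, except the last. The first is 300 bases centred on the summit of the distal interval with the largest called rise. The others are the 250 bases before a RefSeq start (GRCh38.p14) at the called NOTCH2 and RBPJ promoter intervals, and before HES1. The HES1 sequence was picked for its RBPJ motifs, after they were seen, and lies outside the called HES1 interval and beyond the end of its uncalled promoter interval. RefSeq promoters were matched for 8 of the 10 genes. Capitals mark matches on either strand to GTGGGAA or its core TGGGAA (RBPJ), CACGTG (E box), TGANTCA (AP-1), GGAATG (TEAD) or TGACGTCA (CREB), where TGGGAA also lies within GTGGGAA and was added after the other motifs.
JAG1 intron, chr20:10653523-10653822, plus strand: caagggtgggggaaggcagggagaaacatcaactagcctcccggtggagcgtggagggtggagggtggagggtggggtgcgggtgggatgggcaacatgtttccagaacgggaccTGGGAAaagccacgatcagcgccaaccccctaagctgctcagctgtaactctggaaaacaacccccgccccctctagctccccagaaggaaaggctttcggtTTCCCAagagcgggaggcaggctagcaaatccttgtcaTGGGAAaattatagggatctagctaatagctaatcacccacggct
NOTCH2 promoter, chr1:120069663-120069912, minus strand: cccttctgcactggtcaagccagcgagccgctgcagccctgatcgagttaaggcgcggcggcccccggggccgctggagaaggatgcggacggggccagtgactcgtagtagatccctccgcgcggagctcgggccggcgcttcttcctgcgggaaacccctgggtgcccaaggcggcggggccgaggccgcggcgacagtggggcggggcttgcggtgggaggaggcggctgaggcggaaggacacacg
RBPJ internal promoter, chr4:26342890-26343139, plus strand: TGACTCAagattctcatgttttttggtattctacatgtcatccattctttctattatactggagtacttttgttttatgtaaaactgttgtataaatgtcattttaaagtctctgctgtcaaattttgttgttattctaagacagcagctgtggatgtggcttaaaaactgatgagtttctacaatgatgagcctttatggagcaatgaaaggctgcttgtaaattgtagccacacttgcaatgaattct
HES1 promoter, chr3:194135898-194136147, plus strand: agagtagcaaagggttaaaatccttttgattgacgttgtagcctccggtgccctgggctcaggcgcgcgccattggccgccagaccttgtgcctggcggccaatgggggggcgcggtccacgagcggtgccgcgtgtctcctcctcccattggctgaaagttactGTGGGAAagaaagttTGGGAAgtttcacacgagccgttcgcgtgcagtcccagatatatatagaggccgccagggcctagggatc

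The JAG1 sequence held 3 TGGGAA matches and no GTGGGAA. Windows of the same length around the summits of tested intervals held at least 1 TGGGAA in 24.0% of cases and 3 or more in 0.402%. The cut-off of 3 is the count in this sequence, which was picked for its interval's rise, so the 0.402% is not a test. The RBPJ sequence held 1 AP-1 match, a motif found in 6.57% of RefSeq promoters of the same length. The HES1 promoter held 2 TGGGAA matches, of which 1 was the full GTGGGAA, present in 5.43% of RefSeq promoters of the same length. The 300 bases around the summit of the called interval downstream of HES1 (chr3:194141712-194142011, not printed) held 0 matches to the 6 motifs, as did the NOTCH2 sequence. The 300 bases around the summit of the second JAG1 interval called higher (20:10618235-10620341) held 0 as well. None of the searched sequences at called rises held GTGGGAA, and it was found only where no rise was called. The 300 bases around the summit of the NOTCH2 interval called lower (1:120116895-120118663) held 1, as did 5.75% of such windows. Those of the RBPJ and NOTCH3 distal intervals called lower held 0. The NOTCH3 window, at the largest called fall, held 1 AP-1 match, a motif found in 10.4% of such windows. The 250 bases before an RBPJ start at chr4:26319496-26319745, in an uncalled interval, held 2, and those before HEY2 held 1. Whether matches go with a shift was not tested. A match is a description of the letters and not a bound site.

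The height of a peak is given as its fold over local background, and as its percentile, the rank of that fold among all peaks of the same library on a scale to 100. A difference between genotypes was tested on rank shifts. For these, the 34864 intervals with a peak in all 6 libraries and a fold of at least 5 in all 3 libraries of a genotype were ranked within each library, the ranks were turned into normal scores, and limma compared them with Benjamini-Hochberg adjustment over all 34864. A shift is CREBBP-KO minus WT in normal-score units, where 1 unit is 1 SD of the scores within a library. It is a relative measure, and a general gain or loss of acetylation cannot be seen with it. A percentile depends on the length of the list, and the CREBBP-KO lists were longer, whereas the ranks for limma were taken over the same tested intervals in every library.

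Of the 184 intervals, 79 (42.9%) had a peak in all 6 libraries, against 36.3% of all intervals. Of those 79, 47 passed the fold filter and were tested and 32 did not. The filter was met in both genotypes by 38, in WT alone by 4 and in CREBBP-KO alone by 5. An interval that passed through the genotype where it is high had to differ to some degree, so its entry into the test was not independent of its shift. Of the 10 calls named below, 2 of the falls (at NOTCH3 and the smaller HEY1 interval) passed through WT alone and 2 of the rises (both at JAG1) through CREBBP-KO alone, and 3 rises and 3 falls were among the 38. Among the 47, 5 ranked higher in CREBBP-KO and 5 lower at an adjusted p under 0.05 (limma), that is 21.3% called, where 37.3% of all tested intervals were called (18.6% higher, 18.7% lower). The median shift was -0.02 at the 47 and 0.02 at all tested intervals, and the median size of the shift was 0.32 against 0.43. The difference between the shares was not tested. Of the tested intervals at the starts of these genes 2 of 7 were called, both higher, of those at other genes' promoters 0 of 6 (1 at an unadjusted p under 0.05), and of the distal ones 3 of 34 higher and 5 of 34 lower. Over all tested intervals, 34.9% of those at protein-coding starts were called, and of the others 38.5% (14.9% higher, 23.6% lower). Percentiles without overlap between genotypes were found at 12 of the 47 upwards and at 4 downwards, against 34.2% and 15.2% of all tested intervals.

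**Figure D1:**
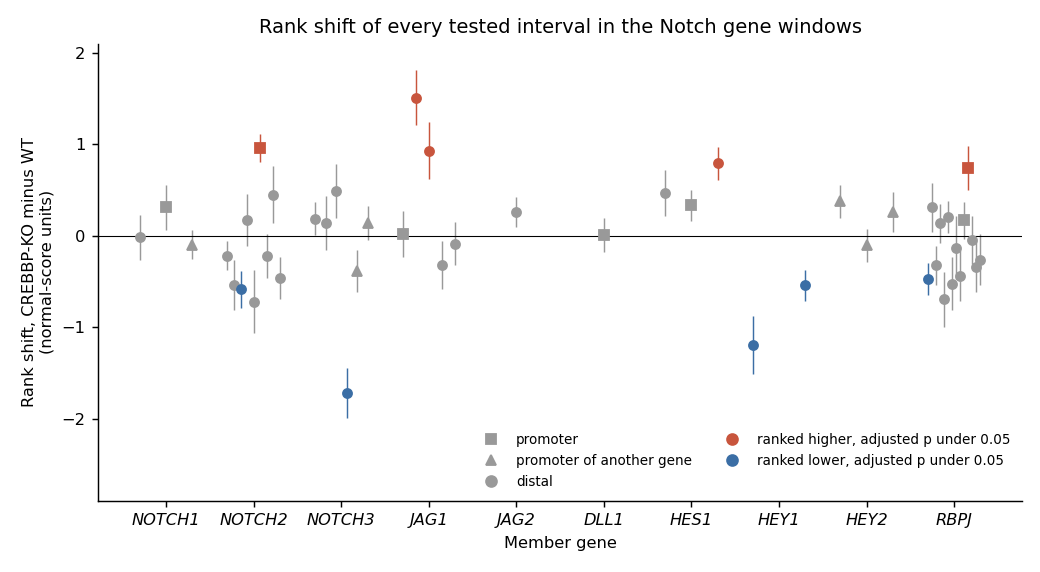
Rank shift (CREBBP-KO minus WT, normal-score units; bars are standard errors) of each of the 47 tested intervals, grouped by gene on the x axis, with red and blue for the 5 called higher and the 5 called lower. The largest rise lay at JAG1 (1.51) and the largest fall at NOTCH3 (-1.72). Of the 47, 37 were not called, where 37.3% of all tested intervals were called. The JAG1 interval met the fold filter in CREBBP-KO alone and the NOTCH3 interval in WT alone.

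The windows held 119, 119 and 118 peaks in the WT libraries and 158, 145 and 132 in the CREBBP-KO libraries. The counts did not overlap, with 119 ± 0.577 (SD, n = 3) against 145 ± 13.0 (exact permutation test, two-sided, p = 0.1, the smallest that 3 against 3 allows). As a share of each list the windows took 0.127% to 0.137% among WT libraries and 0.133% to 0.141% among CREBBP-KO libraries, which overlapped (exact permutation test, p = 0.2). The excess lay in weak peaks. At a fold of at least 5 the mean difference was 5. With peaks of fold 10 or more alone, the windows held 17, 19 and 19 peaks in WT and 15, 16 and 18 in CREBBP-KO, so the mean difference turned to -2, and with lists of the same length it was 7.

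**Figure D2:**
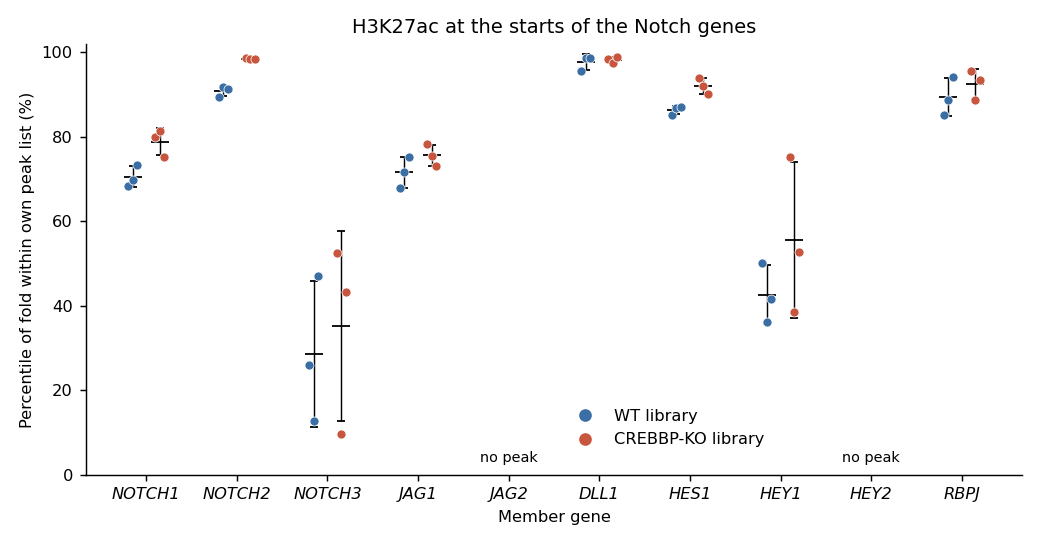
Percentile of the highest H3K27ac peak within 1 kb of a protein-coding start of each gene, in each of the 6 libraries, with group mean and SD. NOTCH2 rose from 90.8 to 98.5 with no overlap, JAG2 and HEY2 had no peak, and the point for DLL1 belongs to a start that it shares with the FAM120B side.

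Among the receptors, NOTCH2 (ENSG00000134250.21, minus strand of chromosome 1) was the one with a called promoter. Its promoter interval (1:120068499-120069853, with its summit 0.5 kb into the gene) had folds of 12.3, 13.2 and 13.6 in WT and 23.2, 23.9 and 24.7 in CREBBP-KO. Every CREBBP-KO library lay above every WT library. The percentiles were 89.4, 91.7 and 91.3 against 98.6, 98.4 and 98.4, and the rank shift was 0.96 ± 0.16 (SE; limma, adjusted p = 0.000102). It kept its call under every alternative fit, with shifts of 0.683 to 1.32.

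The NOTCH2 promoter has 4 near-identical copies on chromosome 1, at NOTCH2NLR (98.4% identical), NOTCH2NLA (97.6%), NOTCH2NLB (96.9%) and NOTCH2NLC (96.8%), so reads could be placed at the wrong copy and the NOTCH2 value is uncertain to that degree. The copies are partial duplicates of NOTCH2, and each had a peak in all 6 libraries. At NOTCH2NLR the percentiles were 91.8, 94.9 and 97.0 in WT and 97.3, 97.4 and 95.5 in CREBBP-KO. At NOTCH2NLA they were 93.6, 90.6 and 95.1 against 94.6, 94.0 and 91.9. The percentile ranges overlapped at both. On the fold scale NOTCH2NLR, the closest copy, did not overlap and lay higher in CREBBP-KO, with folds of 13.6, 15.5 and 18.7 against 19.7, 21.2 and 18.8. The folds of the other copies overlapped. Folds were taken as deposited, without scaling between libraries. At the EP300 promoter the folds also lay apart (24.3, 24.8 and 24.7 against 29.4, 29.0 and 29.3), while its rank shift was 0.05. Higher folds alone therefore do not show that NOTCH2NLR shifted in rank as NOTCH2 did. Whether NOTCH2 differed from its copies was not tested. NOTCH2NLB and NOTCH2NLC also overlapped between genotypes, at percentiles of 89.8 to 94.3 against 92.7 to 97.5 and at 87.8 to 94.9 against 89.9 to 95.2. Copies were looked for with the promoter interval alone, so the same uncertainty may hold for other intervals and the peak counts around NOTCH2.

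Within and around NOTCH2 there were 60 intervals, 17 of them with a peak in all 6 libraries and 9 tested. The WT libraries had 33, 33 and 29 peaks there and the CREBBP-KO libraries 42, 41 and 38, without overlap (exact permutation test, p = 0.1). The whole lists did not overlap either, with means of 90874 peaks in WT and 105241 in CREBBP-KO (exact permutation test, p = 0.1). Of the 60 intervals, 23 had a peak in 1 library alone. The strongest distal interval, 75.1 kb upstream of the start (1:120140432-120145807), stood at percentiles 93.0 to 95.2 among WT libraries against 92.0 to 94.4 among CREBBP-KO libraries, with a shift of -0.22 ± 0.16 (adjusted p = 0.297). A second upstream interval at 48.2 kb (1:120116895-120118663) had folds of 10.5, 14.2 and 10.5 in WT and 8.68, 10.2 and 8.55 in CREBBP-KO, and was ranked lower (-0.59 ± 0.21, adjusted p = 0.0293). That call was lost without WT replicate 2 (adjusted p = 0.192), CREBBP-KO replicate 1 (0.0727) or CREBBP-KO replicate 3 (0.102). It was also lost with ranks of −log10 p (shift -0.24, adjusted p = 0.353) and without the trend (0.0592). A pair of intronic intervals, 44.9 and 59.1 kb into the gene (1:120024645-120025456 and 1:120009835-120010852), were found in each CREBBP-KO library and in no WT library. They were weak, with folds of 3.44, 4.25 and 3.99 at the first and 3.20, 4.25 and 3.15 at the second. With one at DLL1, 3 of the 184 intervals (1.63%) had this pattern, against 2.66% of all intervals.

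**Figure D3:**
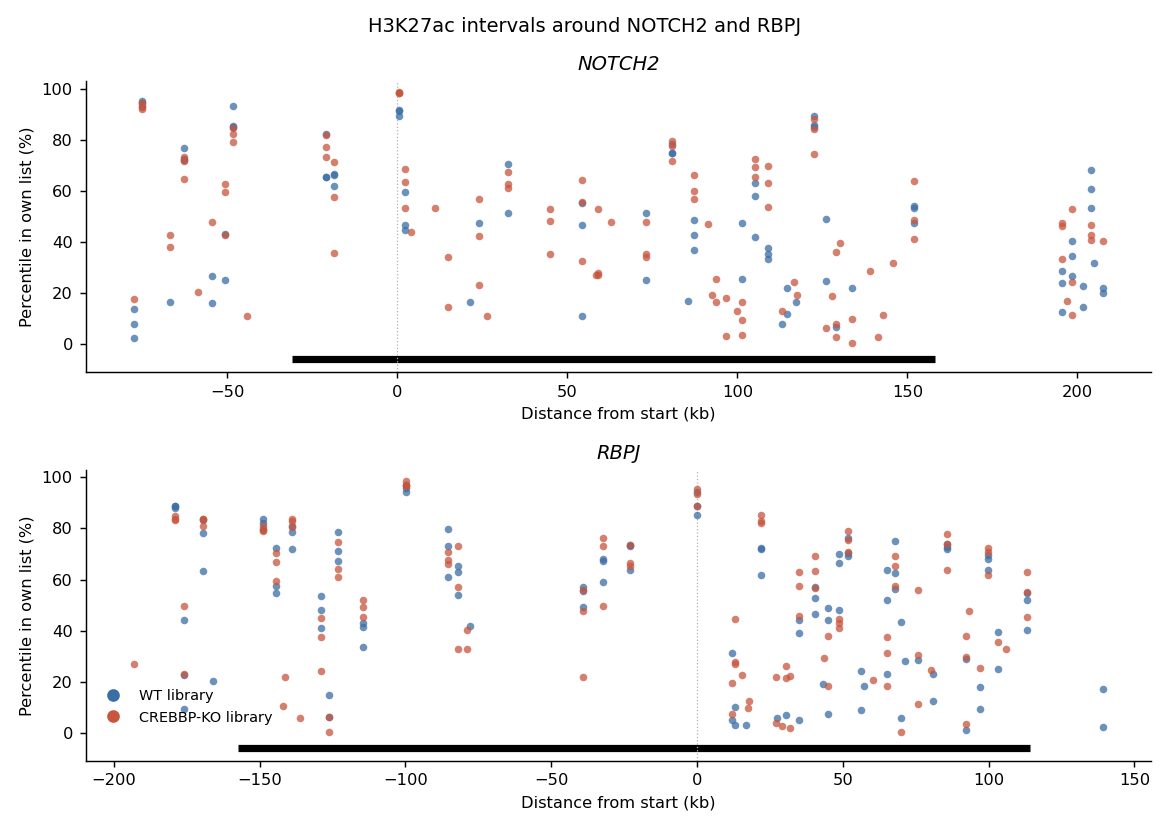
Percentile of each H3K27ac interval around NOTCH2 and RBPJ in each library, against the distance of its summit from the gene's start (kb, positive downstream); the black bar is the gene body. Of the tested intervals 2 of 9 at NOTCH2 and 2 of 14 at RBPJ were called, where 37.3% of all tested intervals were. Of these calls, the one at the NOTCH2 promoter alone held with any single library left out. At the NOTCH2 start (0.5 kb) the CREBBP-KO points sit at 98.4 to 98.6.

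NOTCH1 (ENSG00000148400.13) and NOTCH3 (ENSG00000074181.9) had weaker promoters. The NOTCH1 promoter interval (9:136544675-136547299) had folds of 6.31, 6.52 and 7.38 in WT and 7.96, 8.99 and 7.49 in CREBBP-KO. Its percentiles did not overlap, at 70.5 ± 2.48 against 78.9 ± 3.26 (SD, n = 3; exact permutation test, p = 0.1), but its rank among tested intervals was not called (0.32 ± 0.25, limma adjusted p = 0.324). Non-overlap upwards of this kind was seen at 44.8% of tested intervals at protein-coding starts (8.34% downwards). Only weak peaks lay in the NOTCH1 body. One intronic interval 7.7 kb into the gene (9:136537652-136538679) had folds of 3.00, 3.20 and 3.11 in the WT libraries and no peak in CREBBP-KO, a pattern of 1.08% of all intervals and of 1 of the 184. The strongest distal interval, 21.9 kb upstream (9:136567407-136569104), overlapped between genotypes at percentiles 68.7 to 77.7 against 73.5 to 78.4 (shift -0.02 ± 0.25, adjusted p = 0.966).

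The NOTCH3 promoter interval (19:15199765-15201057) was among the weak peaks, with folds of 3.21, 2.79 and 4.26 in WT and 4.15, 2.69 and 3.74 in CREBBP-KO, and fell under the fold filter. The called NOTCH3 interval lay outside the gene. An interval 62.4 kb downstream of its start (19:15137297-15139676, between protein-coding genes, past the 3′ end) had folds of 10.6, 13.2 and 8.16 in WT and 5.07, 4.84 and 5.68 in CREBBP-KO. All CREBBP-KO libraries lay below all WT libraries. Its percentiles fell from 85.6, 91.8 and 76.7 to 64.1, 60.1 and 66.0, with a shift of -1.72 ± 0.27 (limma, adjusted p = 8.72e-05), and the call held in all alternatives in which the interval was present. It met the filter through WT alone, the genotype where it is high, and without the filter the shift was -1.12 (adjusted p = 0.000259). An intronic interval 5.3 kb into NOTCH3 (19:15195186-15196023) was too weak for the test, with folds of 3.41, 2.39 and 2.97 in WT and 4.80, 4.90 and 4.02 in CREBBP-KO. Without the fold filter it ranked higher (1.21 ± 0.39, adjusted p = 0.0275), and it was picked out after its values were seen. Intervals at NOTCH2 (1:119865246-119866959) and RBPJ (4:26367214-26370643), also under the filter, ranked lower in that fit. Their shifts were -0.82 ± 0.27 (limma, adjusted p = 0.0316) and -0.87 ± 0.29 (adjusted p = 0.0329). The share of all intervals called without the filter is not given here.

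Among the ligands, JAG1 (ENSG00000101384.12, minus strand of chromosome 20) had a called interval inside the gene and none at its start. The promoter interval (20:10670094-10675227) had folds of 6.22, 6.85 and 7.80 in WT and 7.45, 7.30 and 6.98 in CREBBP-KO, which overlapped, with a shift of 0.02 ± 0.25 (adjusted p = 0.952). In an intron 20.3 kb into the gene (20:10653028-10654328), the interval whose sequence holds the 3 TGGGAA matches had folds of 3.18, 2.79 and 3.30 in WT and 5.75, 6.66 and 5.31 in CREBBP-KO. The groups did not overlap. The percentiles were 25.3, 12.7 and 24.7 against 69.6, 72.9 and 63.3, and the shift was 1.51 ± 0.30 (limma, adjusted p = 0.000656), called in each alternative fit that gave it a value. It met the filter through CREBBP-KO alone, the genotype where it is high, and without the filter the shift was 1.44 (adjusted p = 0.00203). A further interval 54.0 kb from the start, in an intron of the neighbouring SLX4IP (20:10618235-10620341), had folds of 3.91, 5.99 and 4.11 in WT and 7.58, 6.11 and 7.45 in CREBBP-KO (shift 0.93 ± 0.31, adjusted p = 0.0227). That call was lost without WT replicate 1 (adjusted p = 0.0878), WT replicate 3 (0.0527), CREBBP-KO replicate 1 (0.102) or CREBBP-KO replicate 3 (0.0841), and with ranks of −log10 p (0.0998). It too met the filter through CREBBP-KO alone, and without the filter the shift was 0.69 (adjusted p = 0.0373). The strongest distal interval, also in SLX4IP at 75.3 kb (20:10596158-10599756), overlapped at percentiles 76.0 to 87.2 against 77.7 to 85.5 (adjusted p = 0.797).

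**Figure D4:**
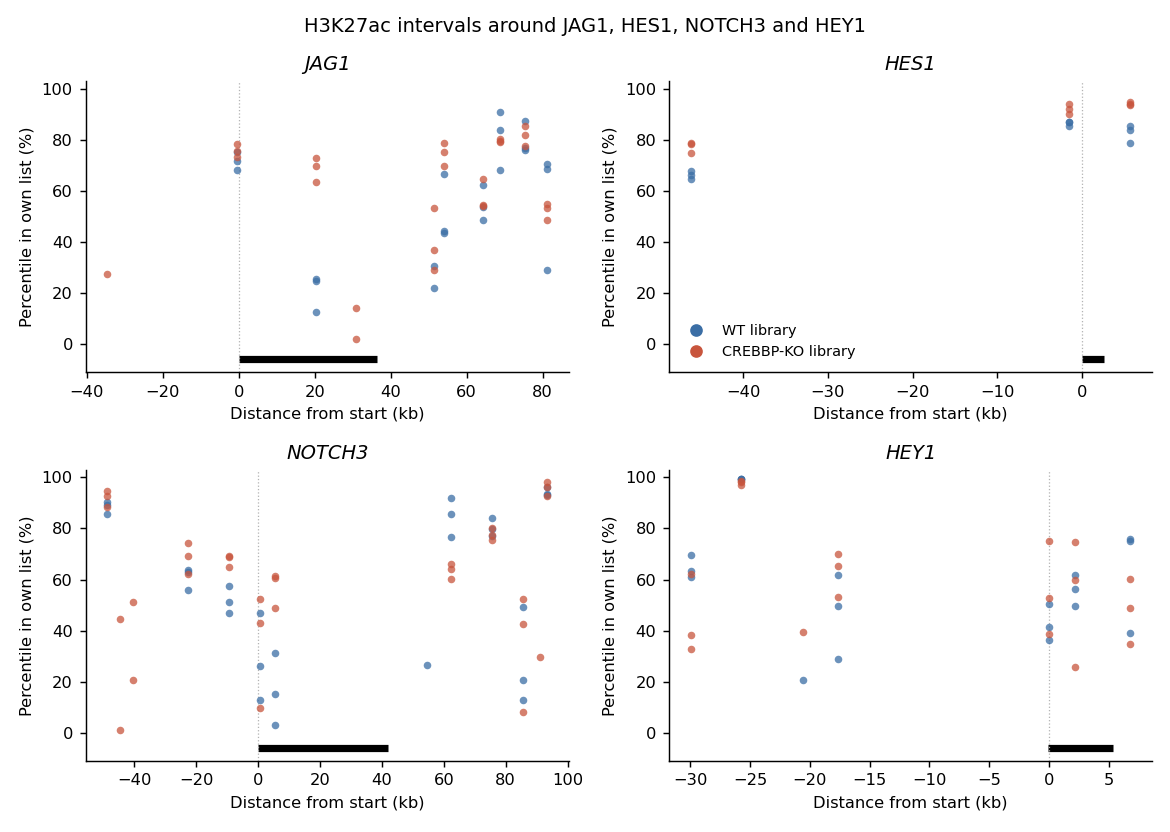
Percentile of each H3K27ac interval around JAG1, HES1, NOTCH3 and HEY1 in each library, against the distance of its summit from the gene's start (kb, positive downstream); the black bar is the gene body. The genotypes part at 20.3 kb in JAG1, at 5.7 kb past the HES1 start and at 62.4 kb past the NOTCH3 start.

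None of the 2 tested intervals of JAG2 and DLL1 was called by limma, and 0 had an unadjusted p under 0.05. JAG2 (ENSG00000184916.9), a second Jagged ligand, had no peak within 1 kb of a start in any library, and its strongest interval lay 75.2 kb downstream (14:105085566-105094702) at percentiles 92.7 to 96.3 among WT libraries against 96.2 to 97.5 among CREBBP-KO libraries (shift 0.26 ± 0.17, adjusted p = 0.215). DLL1 (ENSG00000198719.9), a Delta ligand, is annotated with a far start that lies beside FAM120B, and the strong interval there (6:170305968-170309726) stood at 95.6 to 98.8 among WT libraries against 97.5 to 98.8 among CREBBP-KO libraries, 15.9 kb upstream of the canonical start (shift 0.01 ± 0.19, adjusted p = 0.969). At the canonical start itself (6:170289804-170290806, UTR of DLL1) the peaks were weak, with folds of 2.76 and 3.08 in WT replicates 1 and 3, no peak in WT replicate 2, and 2.77, 3.83 and 2.54 in CREBBP-KO. The CREBBP-KO libraries also shared a weak interval 58.8 kb downstream (6:170231787-170232475) that no WT library had, with folds of 3.40, 3.50 and 3.52. The strongest distal interval, in an intron of FAM120B 20.6 kb upstream (6:170309897-170312186), lay at 28.9 to 62.1 among WT libraries against 19.3 to 57.6 among CREBBP-KO libraries and was under the filter.

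Of the targets, HES1 (ENSG00000114315.4, plus strand of chromosome 3) had one called interval. Its window held 3 intervals, all present in all 6 libraries and all tested. The interval just downstream, with its summit 5.7 kb from the start (3:194140809-194142411, between protein-coding genes), had folds of 8.43, 9.81 and 10.7 in WT and 15.5, 16.1 and 17.7 in CREBBP-KO. No CREBBP-KO library came down to a WT value. The percentiles were 78.7, 83.7 and 85.3 against 94.1, 93.7 and 94.6, and the shift was 0.79 ± 0.18 (limma, adjusted p = 0.00166), called in each alternative that gave it a value. At the promoter interval (3:194133532-194135671, which ends before the printed sequence begins) the folds were 10.5, 10.9 and 11.5 against 15.3, 14.6 and 13.7. These did not overlap either, at percentiles 86.4 ± 0.947 and 92.0 ± 1.94 (exact permutation test, p = 0.1), but the rank shift of 0.33 ± 0.17 was not called (adjusted p = 0.127). The third interval, 46.1 kb upstream (3:194088802-194091742), had percentiles of 64.6 to 67.8 against 74.8 to 78.7 and a shift of 0.47 ± 0.25 (adjusted p = 0.151).

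HEY1 (ENSG00000164683.19) and HEY2 (ENSG00000135547.9) encode related repressors. At the HEY1 promoter interval (8:79767058-79769082) the folds were 4.35, 3.61 and 3.96 in WT and 6.75, 3.55 and 4.30 in CREBBP-KO, overlapping and under the filter. The strongest interval near HEY1, 25.8 kb upstream (8:79790731-79796074), was among the top peaks of every library, with folds of 27.3, 23.3 and 24.3 in WT and 19.5, 24.6 and 23.8 in CREBBP-KO. The folds overlapped, the percentiles were 99.2 to 99.5 against 97.2 to 98.5, and the shift was -0.54 ± 0.17 (adjusted p = 0.0157). That call was lost without WT replicate 1 (adjusted p = 0.0586) or CREBBP-KO replicate 1 (0.0918), and with ranks of −log10 p (shift -0.22, adjusted p = 0.246). A smaller interval 29.9 kb upstream (8:79796365-79798525) had folds of 5.28, 6.47 and 5.75 in WT and 4.85, 3.37 and 3.51 in CREBBP-KO. Its percentiles overlapped through CREBBP-KO replicate 1, at 61.1 to 69.5 against 62.0, 33.0 and 38.1, with a shift of -1.19 ± 0.32 (adjusted p = 0.00554). It met the filter through WT alone, and without the filter the shift was -0.92 (adjusted p = 0.0217). HEY2 had no promoter peak in any library. The strong intervals in its window were promoters of NCOA7, of which the strongest (6:125780331-125785498) stood at 88.8 to 95.3 among WT libraries against 95.8 to 97.9 among CREBBP-KO libraries (shift 0.38 ± 0.18, adjusted p = 0.0952). Its distal interval of highest mean percentile, in an intron of NCOA7 49.5 kb downstream (6:125798880-125799657), had a peak in 3 libraries alone, at 39.6 in WT replicate 3 and 48.0 and 58.8 in CREBBP-KO replicates 1 and 2. Among HEY2 distal intervals with a peak in all 6 libraries, the one in an intron of NCOA7 at 6:125792778-125795721 had percentiles of 58.8, 32.8 and 55.0 in WT and 14.4, 32.1 and 18.3 in CREBBP-KO and was under the filter, and without the filter its shift was -1.08 ± 0.38 (adjusted p = 0.0429).

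RBPJ (ENSG00000168214.22, plus strand of chromosome 4) had the largest window, 371.7 kb, with 62 intervals and 14 tested. At the interval covering its canonical start (4:26318381-26332263) the folds were 10.5, 11.7 and 15.5 in WT and 17.1, 12.3 and 16.5 in CREBBP-KO, overlapping, with a shift of 0.17 ± 0.20 (adjusted p = 0.527). An internal start further into the gene, 21.8 kb downstream (4:26340157-26347059), had folds of 6.98, 6.89 and 5.53 in WT and 8.68, 10.5 and 10.1 in CREBBP-KO and ranked higher (0.74 ± 0.24, adjusted p = 0.0188). That call was lost without WT replicate 3 (adjusted p = 0.062), CREBBP-KO replicate 2 (0.075) or CREBBP-KO replicate 3 (0.0602). It also went when peaks up to 1 kb apart were merged, which brought the shift to 0.17. The strongest distal interval, 99.7 kb upstream (4:26218515-26223800), stood at 94.2 to 97.0 among WT libraries against 96.4 to 98.7 among CREBBP-KO libraries (adjusted p = 0.379). An interval 178.9 kb upstream (4:26139046-26143917) had folds of 12.0, 11.7 and 11.9 against 9.60, 9.90 and 10.2 and was ranked lower (-0.47 ± 0.18, adjusted p = 0.0411). Leaving out any of the 6 libraries ended that call, with adjusted p from 0.0667 to 0.0926, as did a fit without the trend (0.0577).

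The wider pathway was read from the promoters of 41 other genes on 5 lists. A promoter peak was present in all 6 libraries for 28 and in none for 11, and 27 were tested. Of these 7 ranked higher and 2 lower in CREBBP-KO, where 25.9% of all tested intervals at protein-coding starts ranked higher and 8.98% lower. None of the other receptor and ligand genes on the list (NOTCH4, DLL3, DLL4, DLK1 and DNER) had a promoter peak in any library. Of the 15 genes for receptor and ligand modification, trafficking and cleavage, 13 were tested and 3 ranked higher. POFUT1, which adds O-fucose to Notch receptors, had folds of 10.8, 12.3 and 11.0 in WT and 23.8, 26.9 and 27.4 in CREBBP-KO (shift 1.39 ± 0.16, adjusted p = 3.78e-06). ADAM10, the protease of the first cleavage, had folds of 14.6, 13.4 and 13.1 against 22.8, 27 and 25.7 (0.97 ± 0.16, adjusted p = 0.000108). The third, POGLUT1, which adds O-glucose, had a shift of 0.69 (adjusted p = 0.0398), and that call was lost without WT replicate 2 (adjusted p = 0.169), CREBBP-KO replicate 1 (0.106) or CREBBP-KO replicate 3 (0.141). It was also lost without the fold filter (0.0623), at a minimum fold of 3 (0.062) and with ranks of −log10 p (shift 0.34, adjusted p = 0.208).

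Of the 8 nuclear cofactor genes, all had a promoter peak in all 6 libraries and 2 ranked higher, SPEN (0.60 ± 0.18, adjusted p = 0.014), a corepressor partner of RBPJ, and CREBBP itself (0.46 ± 0.18, adjusted p = 0.047). SPEN lost its call without CREBBP-KO replicate 1 (adjusted p = 0.133) and without the trend (0.0556). CREBBP lost it without WT replicate 1 (0.130), WT replicate 3 (0.174), or CREBBP-KO replicate 1 (0.0627), 2 (0.0801) or 3 (0.179), and also without the filter (0.0656), at a minimum fold of 3 (0.0643), with ranks of −log10 p (shift 0.15, adjusted p = 0.457) and without the trend (0.117). The promoter of EP300, the paralogue of CREBBP, stood at 99.1 to 99.5 among WT libraries against 99.4 to 99.6 among CREBBP-KO libraries (shift 0.05, adjusted p = 0.849). Among the negative regulators, NUMBL (1.04 ± 0.17, adjusted p = 0.000101), a homologue of NUMB, and ITCH (0.70 ± 0.17, adjusted p = 0.00274), a ubiquitin ligase, ranked higher. NUMB itself was called lower (-0.75 ± 0.17, adjusted p = 0.00225), although the highest peak of its interval lay at a start in only 3 of the 6 libraries, and the peak at its start had percentiles of 87.3, 98.6 and 87.8 against 94.6, 94.7 and 90.3. The only other call downwards was HES4, a HES-family repressor, with folds of 8.89, 9.51 and 11.0 in WT and 5.70, 6.97 and 5.96 in CREBBP-KO (-1.06 ± 0.24, adjusted p = 0.0019). HES2, HEYL and ATOH1, the last a secretory-fate factor, had no promoter peak in any library.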

How the data were processed

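H3K27ac ChIP-seq was available as 1 list of narrow peaks for each of 3 WT and 3 CREBBP-KO HCEC-1CT libraries. The 2 input libraries were not analysed here. According to the study's methods the authors ran the nf-core ChIP-seq pipeline on hg38 and called peaks with MACS2, and the submitters' processing notes name BWA. They used an antibody from Abcam (Ab4729). The deposited fold is a linear ratio over background, and the deposited significance is −log10 p and −log10 q. The deposited score, which the peak caller derives from the q-value, was not used. The lists hold no read counts, so depth is unknown. Coordinates are 1-based and read against hg38 and GENCODE release 44.

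Peaks were merged across lists, and intervals within 1 kb of a protein-coding start counted as promoters. Percentiles went through an exact permutation test (two-sided, n = 3 per genotype), and rank shifts through limma (lmFit, eBayes with a trend) with Benjamini-Hochberg adjustment. The study's read-based test needs reads and was not run. The genes, lists, motifs and tests were chosen with earlier results of these data known. For each gene the promoter, the strongest distal interval, up to 3 called distal intervals that did not overlap, and intervals found in 1 genotype alone were named. One interval and one sequence that this rule would name are not reported here. The second HEY1 interval, the RBPJ internal promoter, and the NOTCH2, NOTCH3, HEY2 and RBPJ values of intervals under the filter were named after their values were seen. Software was Python 3.11.15, pandas 2.3.3, scipy 1.17.1, pysam 0.24.0, blastn 2.17.0, R 4.3.3, limma 3.58.1 and bedtools 2.31.1. The merge and the fit were tested on simulated data.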

Additional observations from a re-analysis of the deposited data

How the results depend on the processing

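The read depth and the placement of reads between copies limit every value, and 3 libraries a group cannot give an exact p under 0.1. The shifts of the NOTCH2 promoter, the JAG1 intron, the HES1 downstream interval, the NOTCH3 downstream interval and the smaller HEY1 interval kept direction and call under each alternative that gave them a value. Of these, the JAG1, NOTCH3 and HEY1 intervals met the fold filter only in the genotype where they are high. Most alternatives kept that filter and so were not independent of it, while the fit without it is given above. The count of intervals ranked higher was 8 with flanks of 100 kb and 2 with a fold of at least 10. The count ranked lower was 3 with flanks of 20 kb, 9 with 100 kb, 8 without the filter, 8 with a fold of at least 3, 3 with ranks of −log10 p and 3 without the trend. Leaving out 1 library gave 3 to 5 higher (3 without WT replicate 3 or CREBBP-KO replicate 3) and 2 to 8 lower (8 without WT replicate 3, 2 without CREBBP-KO replicate 1). For the other pathway promoters it gave 4 to 7 higher (4 without CREBBP-KO replicate 1) and 2 lower each time. The 2 lower became 1 with a fold of at least 10, with summit windows, and when the highest peak had to lie at a start in all 6 libraries, a choice made after seeing the data.

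The difference in peaks per library was 26.3, and became 5 at a fold of at least 5, -2 at 10, 12.7 at a minimum −log10 q of 5, 7 with lists of the same length and 38.7 with flanks of 100 kb. Leaving out 1 library gave 19.8 to 32.8. With ranks of −log10 p the promoter shift of JAG1 turned to -0.32 and that of DLL1 to -0.15, that of EP300 to -0.118, and the percentile difference of JAG1 to -2.07. With summit windows DLL1 gave -0.016. With 1 library left out, these uncalled shifts crossed 0, the JAG1 promoter running from -0.104 to 0.184, the DLL1 promoter from -0.207 to 0.132, the EP300 promoter from -0.0123 to 0.0989, the NOTCH1 distal interval from -0.078 to 0.121 and the JAG1 interval at 75.3 kb from -0.227 to 0.126. The cause was not tested.

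The deviations of replicates of the same number had correlations of 0.0108, 0.0144 and 0.0284, against -0.0248 to 0.0118 for the other pairings. Values this small cannot tell whether the numbers pair the samples, and the main fit did not pair them. The fit with the replicate number as a block gave 5 higher and 5 lower, and 7 and 2 for the other pathway promoters, and changed no call. Its NOTCH2 promoter shift was 0.96 (limma, adjusted p = 0.000133).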
